A study of Homo sapiens with 8 samples.

Results

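The 7 genes described here are the MHC class I heavy chain genes HLA-B, HLA-C, HLA-E, HLA-F and HLA-G, the light chain gene B2M, and NLRC5, the transactivator of class I genes. They were taken by gene symbol from tables that list 61228 genes. H1975 and HCC44 are human lung cancer cell lines, both labelled WT for genotype, and each was grown in RPMI medium and given the solvent DMSO or ACBI1 for 96 hours. The 4 groups (H1975 DMSO, H1975 ACBI1, HCC44 DMSO and HCC44 ACBI1) held 2 replicate libraries each. ACBI1 is a degrader molecule that links the ubiquitin ligase VHL to bromodomains found in SMARCA4, SMARCA2 and PBRM1, proteins of chromatin remodellers of the SWI/SNF type, and since it acts on protein, RNA counts do not check these labels. The labels give its concentration as 1 mM, and that unit could not be checked. They do not say whether replicates were separate cultures, so p-values measure the spread between these libraries, which may be technical.

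A class I molecule is a polymorphic heavy chain bound to B2M and to a short peptide, and CD8 T cells read the peptide on the cell surface. Without B2M most heavy chains do not reach the surface. HLA-B and HLA-C are classical chains that also engage receptors of NK cells. HLA-E presents peptides cut from the leader sequences of other class I chains to the NK receptor NKG2A, and HLA-F and HLA-G are non-classical chains, with HLA-G best known from the placenta. NLRC5 has no DNA-binding domain of its own. It is recruited to class I and B2M promoters by the RFX complex, together with factors of the CREB/ATF family at the X2 element and NF-Y at the Y box. An interferon-stimulated response element bound by IRF proteins and an NF-kB element lie further upstream in classical class I promoters.

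RefSeq promoter windows were at hand for 5 of the 7 members, HLA-B, HLA-C, HLA-F, HLA-G and B2M. The 250 bases before the annotated transcript start are shown because NLRC5 and its partners act there. Any link of these sequences to the changes with ACBI1 was not tested. Sequences are 5′ to 3′ on the coding strand of GRCh38.p14, and capitals mark matches on either strand to 4 motifs. The motifs were the IRF core AANNGAAA, the Y box core CCAAT, the CREB/ATF (CRE) core TGACG and an NF-kB type motif (GGG, any 5 bases, then CC), and they were chosen after these windows had been read. The windows were chr6:31357180-31357429 (minus strand) for HLA-B, chr6:31272093-31272342 (minus) for HLA-C, chr6:29723184-29723433 (plus) for HLA-F, chr6:29827575-29827824 (plus) for HLA-G and chr15:44711267-44711516 (plus) for B2M.
HLA-B: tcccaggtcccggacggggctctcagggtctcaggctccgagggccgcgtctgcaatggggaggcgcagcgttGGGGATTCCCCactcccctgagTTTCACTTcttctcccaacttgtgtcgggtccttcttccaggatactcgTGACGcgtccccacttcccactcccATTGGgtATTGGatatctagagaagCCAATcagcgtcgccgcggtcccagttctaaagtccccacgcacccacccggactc
HLA-C: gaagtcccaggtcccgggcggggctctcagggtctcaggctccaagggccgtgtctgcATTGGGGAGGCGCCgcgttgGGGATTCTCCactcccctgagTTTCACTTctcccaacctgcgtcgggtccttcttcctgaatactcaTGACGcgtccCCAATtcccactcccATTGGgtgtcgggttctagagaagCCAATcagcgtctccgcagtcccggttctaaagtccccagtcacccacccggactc
HLA-F: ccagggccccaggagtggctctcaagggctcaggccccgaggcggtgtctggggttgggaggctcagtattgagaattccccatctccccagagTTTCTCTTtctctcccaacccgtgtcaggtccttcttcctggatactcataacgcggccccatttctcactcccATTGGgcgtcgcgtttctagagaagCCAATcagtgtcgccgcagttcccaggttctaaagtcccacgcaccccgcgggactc
HLA-G: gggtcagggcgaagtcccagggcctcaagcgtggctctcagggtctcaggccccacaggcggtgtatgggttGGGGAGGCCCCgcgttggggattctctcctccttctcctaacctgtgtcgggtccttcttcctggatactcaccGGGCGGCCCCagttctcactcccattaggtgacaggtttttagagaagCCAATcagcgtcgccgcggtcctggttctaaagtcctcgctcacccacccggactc
B2M: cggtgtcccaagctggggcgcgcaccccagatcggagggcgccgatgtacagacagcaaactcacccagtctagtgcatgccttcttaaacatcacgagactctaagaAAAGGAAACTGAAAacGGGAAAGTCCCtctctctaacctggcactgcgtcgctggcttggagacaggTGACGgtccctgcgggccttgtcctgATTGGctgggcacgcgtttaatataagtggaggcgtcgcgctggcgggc

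The windows of HLA-B, HLA-C and B2M held all 4 motifs. HLA-F held the IRF core and the Y box core and had no match to the other 2 in this window. HLA-G held the Y box core and the NF-kB type motif. Windows at 2 further annotated starts of HLA-G held none of the 4 motifs. Among 35116 windows of the same length, 20.3% held the IRF core, 32% the Y box core, 21.2% the CREB/ATF core, 54.4% the NF-kB type motif and 0.53% all 4. In HLA-C 1 Y box match overlapped 1 NF-kB type match. The motifs were chosen with the member windows known, so these shares do not test how unusual those windows are. No motif for the RFX complex was among the 4. A match describes letters only and does not show that a factor binds there.

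**Figure D1:**
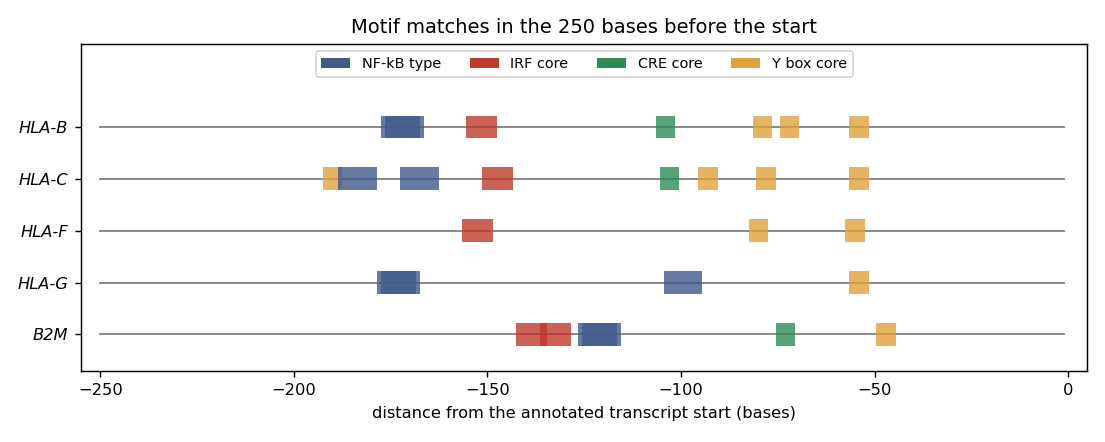
Positions of motif matches in the 250 bases before the annotated start of 5 genes. The x axis is the distance from the start in bases, each row is a gene and each coloured box a match to 1 of 4 motifs. HLA-B, HLA-C and B2M have all 4 kinds of match, and HLA-F and HLA-G have 2 kinds each.

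Counts assigned to genes were 62467286 to 70455517 per library. Levels are CPM, counts brought to a common library size with TMM factors (trimmed mean of M-values), or RPKM, which is CPM per kilobase of a GENCODE release 29 transcript, where genes are set side by side. The epithelial markers EPCAM, CDH1, KRT7, KRT8, KRT18 and KRT19 were detected in all 4 groups, with summed levels of 5140 to 5390 CPM in H1975 DMSO, 2330 to 2810 in H1975 ACBI1, 940 to 980 in HCC44 DMSO and 1200 to 1660 in HCC44 ACBI1. Of 9 leukocyte markers, CD14 and CSF1R alone reached 1 CPM in any library, and the list summed to 12.4 to 20.2 CPM in H1975 and 1.87 to 4.34 CPM in HCC44. CD3E was at 0 in every library and PTPRC (CD45) was at most 0.048 CPM. Of 6 endothelial and fibroblast markers DCN was at 0 in every library, and the list summed to 1.26 to 2.67 CPM in H1975 and 6.46 to 8.64 CPM in HCC44. With ACBI1 4 of the 6 epithelial markers fell in H1975 (KRT7, KRT8, KRT18 and KRT19) and none rose, by the edgeR threshold given below. Over all tested genes 16.7% fell and 14.6% rose in H1975, and 17.4% fell and 17.5% rose in HCC44. In HCC44 EPCAM and KRT7 rose, KRT8 fell and 3 were not called, and the higher sum there was mostly KRT7, with group means of 441 and then 936 CPM. The KRT19 call in H1975 was lost without H1975 DMSO replicate 1 (-0.94) or ACBI1 replicate 2 (-0.90). In HCC44 CDH1 was called without HCC44 ACBI1 replicate 1 (1.29) and KRT19 without replicate 2 (-0.52), and in H1975 CDH1 was called without either of these libraries (-0.75 for each). The part of these shifts in the results was not tested. With RNA from whole cultures, fewer expressing cells and less RNA per cell cannot be told apart.

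With ACBI1 6 of the 6 members that could be tested fell in H1975 and 4 of 6 fell in HCC44. HLA-G had too few counts to be tested. A gene was called when its Benjamini-Hochberg adjusted p from edgeR's quasi-likelihood test was under 0.05. In H1975 31.3% of 21307 tested genes were called, with 16.7% lower and 14.6% higher. In HCC44 34.9% were called, with 17.4% lower and 17.5% higher. NLRC5, HLA-B, HLA-C and B2M fell in both lines, and 7.08% of all tested genes were called as lower in both. The median log2 fold change of the 6 members was -0.62 in H1975 and -0.91 in HCC44, against -0.01 and 0.01 over all tested genes. All 6 had both ACBI1 libraries below both DMSO libraries in H1975, which held for 34.2% of tested genes, and 5 of 6 did in HCC44, where the share was 32.7%.

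The scaling bears on the smaller falls. Library totals in place of TMM factors raised the median gene by 0.194 on the log2 scale in H1975 and by 0.087 in HCC44. With them 27.7% of the calls in H1975 were falls, against 53.4% with TMM factors, and 39.5% against 50% in HCC44. Directions below are therefore relative to the TMM scale.

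NLRC5 lies on chromosome 16 at 56989485 to 57083531 (GRCh38, plus strand), and the transcript used for its length has 49 exons. In H1975 its level was 62.2 and 51.1 CPM with DMSO and 34 and 27.2 CPM with ACBI1. The HCC44 levels were 20.9 and 21.5 CPM untreated and 6.71 and 8.92 CPM treated. The treated libraries were below the untreated ones in each line, and all HCC44 libraries were below all H1975 libraries. NLRC5 fell 1.85-fold in H1975 (-0.89 ± 0.16 as log2 fold change and SE, adjusted p 0.00198) and 2.71-fold in HCC44 (-1.44 ± 0.17, adjusted p 0.000101). Its fold change stood 9.77% of the way up from the lowest of all tested genes in H1975 and 5.38% of the way up in HCC44.

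HLA-B encodes a classical heavy chain and had the highest RPKM of the heavy chains in every library. Its GENCODE gene model runs from 31269491 to 31357188 on chromosome 6 (minus strand), since 1 of its annotated transcripts reaches into HLA-C. In H1975 HLA-B was at 384 and 481 CPM with DMSO and at 259 and 307 CPM with ACBI1. HCC44 libraries held 607 and 620 CPM with DMSO and 288 and 244 CPM with ACBI1. The groups did not overlap within either line, and the treated libraries of the lines lay in the same range, 244 to 307 CPM. The log2 fold change in H1975 was -0.61 ± 0.13 (adjusted p 0.00464). That call rested on single libraries: the value was -0.39 (adjusted p 0.059) without H1975 DMSO replicate 2 and -0.46 (adjusted p 0.06) without H1975 ACBI1 replicate 1. In HCC44 the log2 fold change was -1.20 ± 0.13 (adjusted p 6.34e-05), a 2.3-fold fall.

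HLA-C, the other classical chain measured here, lies at 31268749 to 31272130 on chromosome 6 (minus strand). In H1975 it was at 176 and 206 CPM with DMSO and at 111 and 135 CPM with ACBI1. HCC44 libraries had 309 and 303 CPM with DMSO and 169 and 147 CPM with ACBI1. As with HLA-B, every treated library was below every untreated library of its line. The log2 fold change was -0.64 ± 0.12 (adjusted p 0.0023) in H1975 and -0.95 ± 0.12 (adjusted p 0.000145) in HCC44. Both HLA-C calls were kept with any single library left out. Class I genes are near copies of each other: 6.79% of the 50-base windows of the HLA-C transcript and 2.54% of those of HLA-B also occur in other genes, and how reads were split between such genes was not tested.

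**Figure D2:**
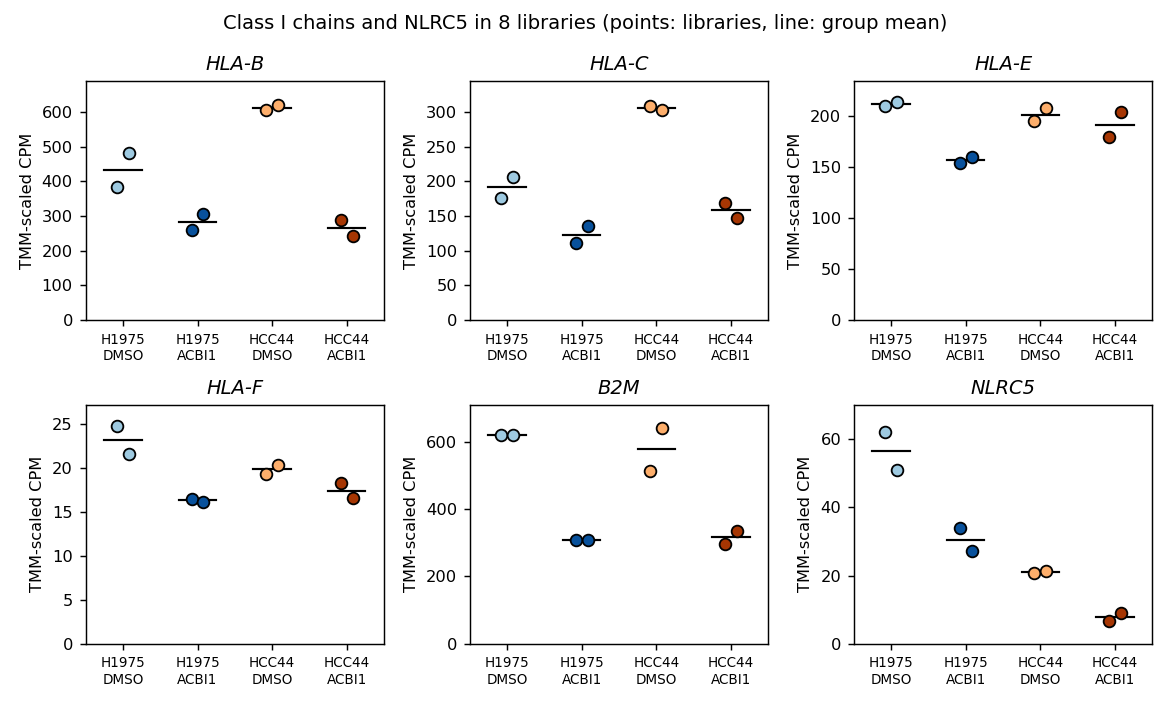
TMM-scaled CPM of 6 members in the 8 libraries. Each panel is a gene with its own y axis from 0, points are libraries and lines are group means (n = 2). B2M, HLA-B, HLA-C and NLRC5 are lower with ACBI1 in both lines, while the HLA-E libraries of HCC44 overlap.

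HLA-E, the ligand of NKG2A, lies at 30489467 to 30494205 on chromosome 6 (plus strand). In H1975 it was at 210 and 214 CPM with DMSO and at 154 and 160 CPM with ACBI1. For HCC44 the levels were 195 and 208 CPM with DMSO, then 179 and 204 CPM with ACBI1. The treated libraries of H1975 were the lowest of the 8, and those of HCC44 overlapped their controls. HLA-E fell in H1975 with a log2 fold change of -0.43 ± 0.09 (adjusted p 0.00447). The call was lost with library totals (-0.23, adjusted p 0.0579) and without H1975 ACBI1 replicate 1 (-0.37, adjusted p 0.0637). In HCC44 the value was -0.07 (adjusted p 0.581), with a 95% interval of -0.27 to 0.13, so a fall of the size seen for HLA-B or HLA-C in that line lies outside the interval. Its sign turned with library totals (0.02) and without HCC44 ACBI1 replicate 1 (0.02).

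HLA-F, a non-classical chain, lies at 29722775 to 29738528 on chromosome 6 (plus strand). In H1975 it was at 24.8 and 21.6 CPM with DMSO and at 16.5 and 16.2 CPM with ACBI1. The HCC44 libraries gave 19.4 and 20.4 CPM untreated, and 18.3 and 16.6 CPM treated. Treated libraries were below untreated ones in both lines. The log2 fold change of -0.51 ± 0.12 in H1975 was called (adjusted p 0.00995), and that of -0.19 in HCC44 was not (95% interval -0.46 to 0.08, adjusted p 0.265). The H1975 call was lost with library totals (-0.30) and without H1975 DMSO replicate 1 (-0.41), ACBI1 replicate 1 (-0.48) or ACBI1 replicate 2 (-0.47). Exons of other genes, among them the antisense gene HLA-F-AS1, cover 47.5% of the HLA-F transcript, and the strand setting of the counting is not given, so its counts are uncertain in that respect.

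HLA-G lies at 29826967 to 29831125 on chromosome 6 (plus strand) and was near the counting limit. Exons of HCG4P8 cover 28.8% of its transcript. The untreated H1975 libraries held 0 and 3 counts and the treated ones 1 and 1, while HCC44 held 2 and 2 untreated and 0 and 0 treated. These counts allow at most 0.0738 CPM in any group (upper exact 95% Poisson limit, counting error only). No fold is given, since these counts are at or near a floor of 3 counts.

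B2M, the light chain shared by the class I chains, lies at 44711487 to 44718877 on chromosome 15 (plus strand), away from the heavy chain genes. In H1975 it was at 621 and 620 CPM with DMSO and at 310 and 310 CPM with ACBI1. Untreated HCC44 had 515 and 641 CPM, and treated HCC44 297 and 336 CPM. The H1975 replicates agreed closely, and the HCC44 DMSO replicates lay further apart than any other pair. In H1975 B2M fell 2-fold (95% interval of the log2 fold change -1.24 to -0.76, adjusted p 0.000113), an interval that overlaps that of NLRC5 (-1.24 to -0.54). In HCC44 its log2 fold change was -0.87 ± 0.11 (adjusted p 0.00017). Both calls held under each of the 18 alternatives run.

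**Figure D3:**
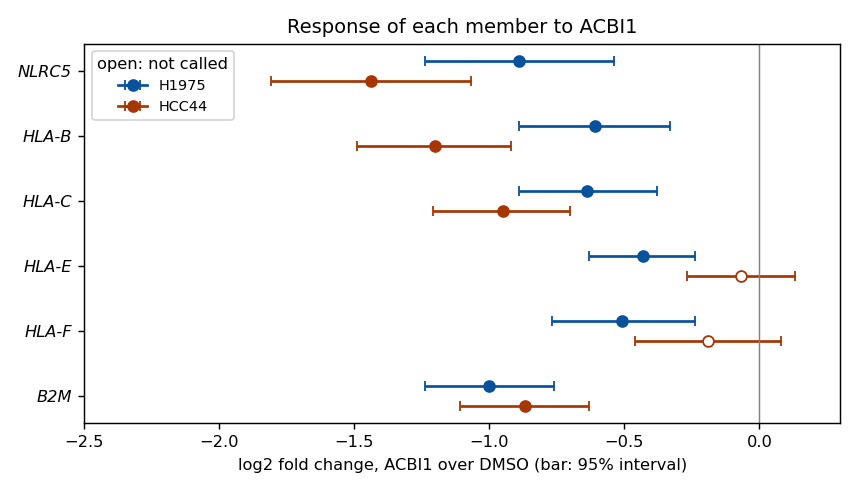
Log2 fold change of ACBI1 over DMSO for 6 members in H1975 and HCC44. The x axis is the log2 fold change, bars are 95% intervals, and open points did not pass the threshold. In HCC44 HLA-E (-0.07) and HLA-F (-0.19) have intervals that include 0, and the other 4 members lie at -0.87 or below.

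The response differed between the lines for 1 of 6 tested members, HLA-B, and 18.6% of all tested genes were called for this difference (8.4% lower and 10.2% higher in HCC44). The HLA-B fold change was lower in HCC44, with a log2 difference of -0.59 ± 0.18 (adjusted p 0.0431). That value lies near the threshold, and it was not called without any 1 of 5 libraries: H1975 DMSO replicate 1 (-0.43), H1975 ACBI1 replicate 2 (-0.48), HCC44 DMSO replicate 1 (-0.61), HCC44 DMSO replicate 2 (-0.57) or HCC44 ACBI1 replicate 2 (-0.47). HLA-E had a log2 difference of the opposite sign, 0.36 (95% interval 0.08 to 0.64), which was not called (adjusted p 0.0715). It was called without HCC44 ACBI1 replicate 1 (0.46, adjusted p 0.0265). NLRC5 had a difference of -0.55 (-1.05 to -0.05, adjusted p 0.118), which was called without the filter on low counts (-0.54) and without HCC44 ACBI1 replicate 2 (-0.77). For HLA-C (-0.32, adjusted p 0.212), HLA-F (0.32, adjusted p 0.241) and B2M (0.13, adjusted p 0.606) no difference was called. A fit with a block for same-numbered replicates, which the labels do not pair, called 4 members. Besides HLA-B these were HLA-C (-0.32, adjusted p 0.0318), HLA-E (0.36, adjusted p 0.014) and NLRC5 (-0.56, adjusted p 0.0158). The B2M interval was -0.21 to 0.47, and its sign turned without HCC44 DMSO replicate 1 (-0.02). With library totals 59.5% of the calls for the difference were on the negative side, against 45.1% with TMM factors.

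The untreated lines differed in NLRC5, HLA-B and HLA-C, while 67.9% of all tested genes were called between them, 36.4% as lower in HCC44 and 31.6% as higher, and 45% had both HCC44 libraries below both H1975 libraries. HLA-B was higher in HCC44 DMSO than in H1975 DMSO by 0.50 ± 0.13 on the log2 scale (adjusted p 0.00456), and HLA-C by 0.68 ± 0.12 (adjusted p 0.000328). NLRC5 was lower in HCC44, by -1.42 ± 0.16 (adjusted p 1.45e-05). HLA-E (-0.07), HLA-F (-0.22) and B2M (-0.10) were not called, though B2M was with the replicate block (-0.23, adjusted p 0.0244). HLA-F was called with library totals (-0.34, adjusted p 0.0299), and the sign of B2M turned without HCC44 DMSO replicate 1 (0.05). So HCC44 had less NLRC5 and more HLA-B and HLA-C than H1975 when untreated, while all 3 fell with ACBI1 within each line. Class I alleles differ between people and so between lines, and reads from an allele far from the reference may align less well. The effect of that on levels between lines was not tested.

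The order of the 4 groups differed by gene. HLA-B and HLA-C were highest in HCC44 DMSO, then H1975 DMSO. HLA-B in the treated groups overlapped, while HLA-C was higher in HCC44 ACBI1 (147 to 169 CPM) than in H1975 ACBI1 (111 to 135 CPM). B2M formed 2 levels, with the DMSO groups overlapping at 515 to 641 CPM and the ACBI1 groups at 297 to 336 CPM. NLRC5 descended from H1975 DMSO through H1975 ACBI1 and HCC44 DMSO to HCC44 ACBI1 with no overlap. HLA-E in H1975 ACBI1 (154 to 160 CPM) lay below the other 3 groups, which spanned 179 to 214 CPM.

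Per kilobase, the summed RPKM of HLA-B, HLA-C, HLA-E and HLA-F was 459 and 541 in H1975 DMSO and 309 and 358 in H1975 ACBI1. The HCC44 sums were 681 and 690 untreated and 377 and 342 treated. The make-up of the sum differed in HCC44: HLA-E gave 11 and 11.6% of it with DMSO and 18.3 and 22.9% with ACBI1, while HLA-B gave 57.6 and 58% and then 49.5 and 46.1%. In H1975 the HLA-E share was 17.6 and 15.2% with DMSO and 19.1 and 17.2% with ACBI1, so the groups overlapped. The heavy chain sum over B2M, as a ratio of RPKM, was 1.26 and 1.49 in H1975 DMSO and 1.7 and 1.97 in H1975 ACBI1. In HCC44 the ratios overlapped, at 2.25 and 1.84 untreated and 2.16 and 1.74 treated. These ratios do not depend on library scaling, and no test was run on them. An exact permutation of 2 libraries against 2 cannot give a p below 0.333 (two-sided). The ratios do depend on the transcript lengths used and on the counts of HLA-B and HLA-F, which overlap exons of other genes. They leave out any class I chain not among the members.

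**Figure D4:**
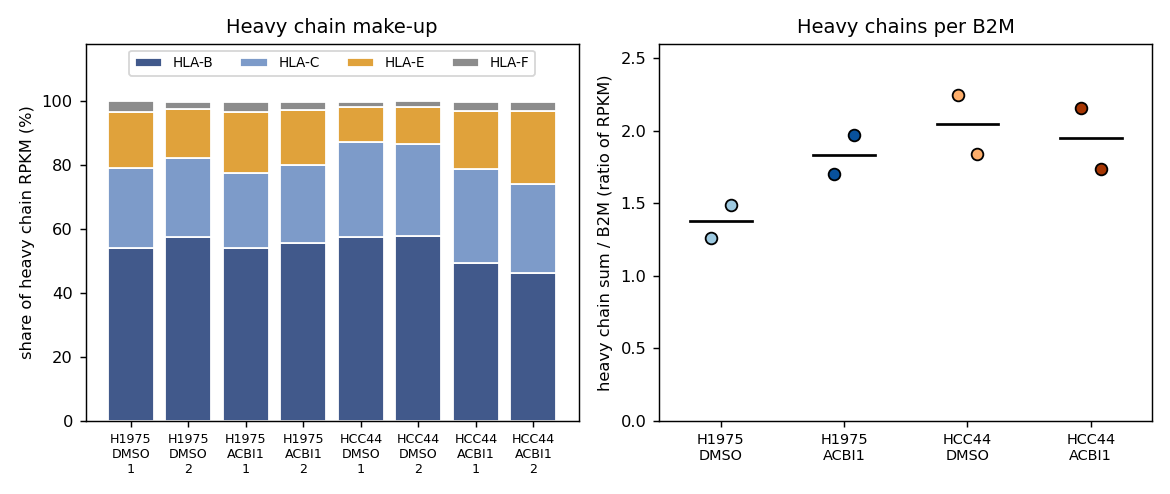
Left, shares of the summed heavy chain RPKM given by HLA-B, HLA-C, HLA-E and HLA-F in each library, in percent. Right, the summed heavy chain RPKM divided by B2M RPKM, with points for libraries and lines for group means. The HLA-E share in HCC44 is 11 and 11.6% with DMSO and 18.3 and 22.9% with ACBI1, and the ratio to B2M is higher with ACBI1 in H1975.

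Of 11 factors at class I and class II promoters, 2 rose and 2 fell in H1975, where 14.6% of all tested genes rose and 16.7% fell. In HCC44 3 rose and 3 fell, where 17.5% of all tested genes rose and 17.4% fell. The H1975 counts are near those shares, and the medians of -0.08 and -0.11 stand beside -0.01 and 0.01 over all tested genes. RFX5, the subunit of the RFX complex that binds DNA, rose in both lines. H1975 libraries held 61.9 and 59.7 CPM with DMSO and 104 and 103 CPM with ACBI1 (0.77 ± 0.12, adjusted p 0.00118). HCC44 libraries held 84.7 and 103, then 201 and 256 CPM (1.28 ± 0.13, adjusted p 3.59e-05). KAT2B, a histone acetyltransferase, also rose, by 0.93 ± 0.16 in H1975 and 1.69 ± 0.16 in HCC44. CIITA, the class II relative of NLRC5, fell in both lines. Its H1975 levels were 12.7 and 12.8 CPM, then 5.48 and 4.78 CPM (-1.31 ± 0.15, adjusted p 0.000155), and its HCC44 levels 15.2 and 14 CPM, then 3.34 and 3.38 CPM (-2.12 ± 0.16, adjusted p 6.66e-06). For NFYA, a subunit of NF-Y, the values were -0.31 ± 0.1 (adjusted p 0.0406) and -0.77 ± 0.1 (adjusted p 0.000225), both called. The H1975 call for NFYA was lost in 10 of 18 settings, among them library totals (-0.10), DESeq2 (-0.27) and the removal of H1975 DMSO replicate 2 (-0.18), H1975 ACBI1 replicate 1 (-0.18) or 2 (-0.38), or HCC44 DMSO replicate 1 or 2 (-0.31 for each).

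A list of 16 genes held those that carry interferon or NF-kB signals to class I promoters and the inhibitors SOCS1 and PTPN2. Of these genes 7 fell and none rose in H1975, with a median of -0.27, beside 16.7% of all tested genes that fell. In HCC44 3 fell and 3 rose, with a median of -0.04, which is near the 17.4% and 17.5% of all tested genes. STAT2, a subunit of the ISGF3 complex, fell in both lines. Its H1975 levels were 160 and 119 CPM with DMSO and 50.6 and 39.5 CPM with ACBI1 (-1.63 ± 0.17, adjusted p 0.000188). The HCC44 levels of STAT2 were 72.3 and 73.7, then 48.8 and 38.1 CPM (-0.75 ± 0.17, adjusted p 0.00813). The HCC44 call for STAT2 was lost without HCC44 ACBI1 replicate 2 (-0.58). IFNGR1, a chain of the interferon gamma receptor, was at -0.36 ± 0.1 (adjusted p 0.0229) and -0.74 ± 0.1 (adjusted p 0.000324), both called. The H1975 call for IFNGR1 was lost in 7 of 18 settings: library totals (-0.16), DESeq2 (-0.33), the stricter threshold of 0.01, and without H1975 DMSO replicate 1 (-0.41) or 2 (-0.27) or ACBI1 replicate 1 (-0.24) or 2 (-0.44). SOCS1, an inhibitor of JAK kinases, was at -0.29 in H1975 (not called) and fell by 1.28 (SE 0.27, adjusted p 0.00384) in HCC44. IFNAR2, a chain of the type I interferon receptor, was at 0.26 in H1975 (not called) and rose by 1.24 ± 0.15 (adjusted p 0.000133) in HCC44.

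In peptide processing and loading, 10 of 14 genes fell in H1975 and 9 of 14 in HCC44, none rose in either, and the medians were -0.53 and -0.44. Over all tested genes 16.7% and 17.4% fell in these lines. PSMB10, an immunoproteasome subunit, had the largest fall of the list in both lines, -1.53 ± 0.19 (adjusted p 0.000262) in H1975 and -2.00 ± 0.19 (adjusted p 2.9e-05) in HCC44. The largest values were those of CALR in H1975 (-0.06), a chaperone of heavy chains, and TAP1 in HCC44 (0.27), a chain of the peptide transporter, and neither was called. TAP1 in HCC44 was called without HCC44 ACBI1 replicate 1 (0.43) and with 3 other settings.

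Among 10 tested class I-like genes 3 rose and 4 fell in H1975, and 4 rose and 3 fell in HCC44, beside the same shares of all tested genes. FCGRT, the heavy chain of the neonatal Fc receptor, which also pairs with B2M, rose in both lines, with log2 fold changes of 0.94 ± 0.2 (H1975, adjusted p 0.00549) and 1.32 ± 0.2 (HCC44, adjusted p 0.000599). HFE, an iron regulator that pairs with B2M too, was at 0.52 in H1975 (adjusted p 0.0708) and rose by 1.75 ± 0.21 (adjusted p 0.000113) in HCC44. The H1975 value of HFE passed the threshold in 9 of 18 settings, among them those without H1975 ACBI1 replicate 1 (0.73) and without HCC44 ACBI1 replicate 1 or 2 (0.52 for each). MR1, a chain that presents vitamin B metabolites and also pairs with B2M, fell in both lines (-0.44 ± 0.12, adjusted p 0.0174 in H1975; -0.82 ± 0.12, adjusted p 0.000384 in HCC44), and was picked out after its values were seen. The H1975 call for MR1 was lost with library totals (-0.23), at a threshold of 0.01, and without H1975 DMSO replicate 2 (-0.36) or ACBI1 replicate 1 (-0.31). The B2M partners in this list therefore did not share 1 direction. RAET1L, a ligand of the NK receptor NKG2D, fell in H1975 (-2.33 ± 0.32, adjusted p 0.000421). In HCC44 it had 8 counts over the DMSO libraries and 1 over the ACBI1 libraries, and DMSO over ACBI1 gave 7.47 (1 to 332, counting error only). Other NKG2D ligands in this list were called in both directions in each line.

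Of 10 class I pseudogenes, 4 were tested. HLA-H, which is close in sequence to class I genes, fell in both lines, with group means of 2.12 and then 1.06 CPM in H1975 (adjusted p 0.00281) and of 31.2 and then 16.4 CPM in HCC44 (adjusted p 0.000903). HLA-L was at 0.50 in H1975 and HLA-V at 0.95 in HCC44, and neither was called, though HLA-L was without H1975 DMSO replicate 1 (1.04). Among 8 tested class II genes 2 fell in H1975 and 3 in HCC44, and none rose. Over all tested genes 16.7% fell in H1975 and 17.4% in HCC44, and the H1975 count is near that share. HLA-DRA, the chain shared by HLA-DR molecules, fell in both lines. It had 2.28 and 1.52 CPM untreated and 0.519 and 0.353 CPM treated in H1975 (adjusted p 0.000403), against 24.7 and 20 CPM and then 8.58 and 7 CPM for HCC44 (adjusted p 0.000398). For HLA-DRB1 the H1975 libraries held 2 counts in all with DMSO and 3 with ACBI1 (DMSO over ACBI1 0.64, 0.0534 to 5.59 by counting error), and HLA-DOA in HCC44 was at 0.94, which was not called.

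**Figure D5:**
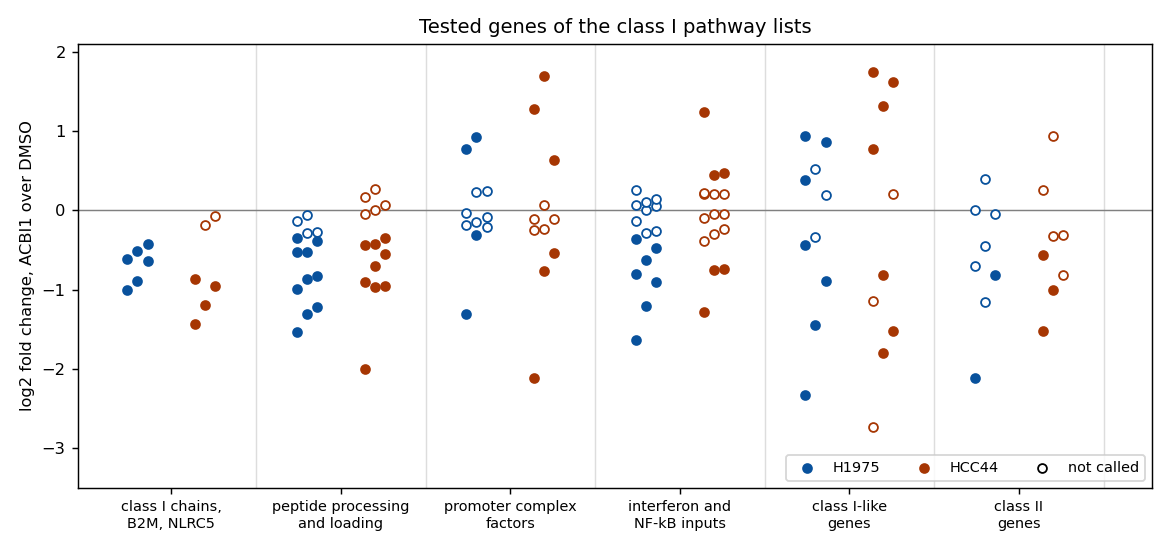
Log2 fold change of ACBI1 over DMSO for the tested genes of 6 lists in H1975 and HCC44. Each point is a gene, filled where it passed the threshold and open where it did not, and the lowest open point is RAET1L in HCC44, with 8 counts against 1. The class I chains with B2M and NLRC5, the peptide processing genes and the class II genes have no filled point above 0. Promoter factors and class I-like genes have filled points on both sides.

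The genes whose levels followed B2M most closely were PSME4 (Pearson r 0.9976), H3-3A (0.9973), BACH1 (0.9952), AKR1B1 (0.9952) and MARCHF7 (0.9947). Those closest to NLRC5 were FXYD5 (0.9937), ZNF598 (0.9933), GPI (0.9928), MROH1 (0.9925) and ELF4 (0.9908). The r was taken over 8 libraries, on log2(CPM + 1) less the mean of the line, among 11653 genes averaging 5 CPM or more. These values describe libraries that share a treatment, and r does not depend on the size of a fall. A gene that fell steadily in both lines can therefore score high with a smaller fall. AKR1B1 had log2 fold changes of -1.05 (H1975) and -0.92 (HCC44), near those of B2M. Smaller falls were those of PSME4 (-0.47 and -0.4), H3-3A (-0.48 and -0.42), BACH1 (-0.56 and -0.5) and MARCHF7 (-0.33 and -0.32). Between members, r was 0.991 for HLA-B with HLA-C, 0.932 for NLRC5 with B2M, 0.883 for NLRC5 with HLA-B and 0.65 for NLRC5 with HLA-E. HLA-B and HLA-E had the lowest value, 0.528.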

How the data were processed

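RNA from 8 cell culture libraries was counted per gene. The deposited values are raw read counts, 1 table per library. TopHat2 2.1.1, HTSeq 0.11.0 and hg38 are named per the submitters' processing notes, with no role or order. The annotation and strand setting are not given in the sources used here. Tests did not use the 5 summary rows (no feature, ambiguous and the like), 14.3 to 15.8% of all counts by library. Reads aligned to more than 1 place were 3.62 to 4.67% of the total, which touches near-identical class I genes. Of the windows of 50 bases along each heavy chain transcript, 1.7 to 6.79% also occur in transcripts of other genes, and none do for B2M or NLRC5.

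Genes were kept with filterByExpr on the 4 groups (21307 genes), scaled with TMM factors and fitted in edgeR 4.0.16 (R 4.3.3) with a mean per group over all 8 libraries and 4 residual degrees of freedom. The two-sided quasi-likelihood test with robust dispersion was run for 4 contrasts. Adjusted p-values cover all tested genes. The SE is the log2 fold change over the square root of F. RPKM used the longest GENCODE 29 basic transcript with a CCDS tag. The procedure was also run on counts simulated with the dispersions of this same fit, and the outcome of that run is not used here. Replicates differed by more than sampling noise: chi-square divided by its degrees of freedom was 24 to 48.4. Gene totals were 62467286 to 70455517 per library.

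From each list were named the genes of smallest and largest log2 fold change in each line and, for promoter factors and signal inputs, all genes called in both. Markers and MR1 were named outside this rule. The members and lists were chosen with earlier results of these data known. Alternatives were DESeq2 1.42.0, RLE and upper-quartile factors, library totals, no filter, 1 CPM in 2 libraries, each line alone, a replicate block, non-robust dispersion, a threshold of 0.01, and each library left out.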

Additional observations from a re-analysis of the deposited data

Results flagged for a closer look

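HLA-B, 6 genes named from the pathway lists, 4 of 6 epithelial markers and CSF1R had ACBI1 fold changes called as different by line. Over all tested genes 18.6% were called in this test. The 6 pathway genes were named for their fold changes in each line, so their number is not comparable with that share. Over whole lists, 6 of 16 interferon and NF-kB inputs were called, all with a higher fold change in HCC44. The counts were 4 of 11 promoter factors, 5 of 14 peptide processing genes and 4 of 10 class I-like genes. None of 4 tested class I pseudogenes or 8 tested class II genes was called. Values are HCC44 minus H1975 on the log2 scale, with adjusted p-values from edgeR. Among endothelial and fibroblast markers, 3 of 5 tested were called as well: CDH5 (-2.82), LUM (2.75) and VWF (-2.46), all at low levels. The alternatives were not followed for these. HLA-B was at -0.59 (adjusted p 0.0431), with a fall in both lines that was larger in HCC44. CIITA was at -0.81 (adjusted p 0.0231) and NFYA at -0.47 (adjusted p 0.0437), also with larger falls in HCC44. KAT2B was at 0.76 (adjusted p 0.041), with a larger rise in HCC44. IFNAR2 was at 0.98 (adjusted p 0.0101) and HFE at 1.22 (adjusted p 0.0139), and each rose in HCC44 and was not called in H1975. STAT2 was at 0.88 (adjusted p 0.0329), with a larger fall in H1975. Of 17 alternatives, 6 lost the call for HLA-B, 6 for CIITA, 6 for NFYA, 9 for KAT2B, 8 for STAT2, 2 for HFE and 1 for IFNAR2. With single libraries left out, the lost calls had values of -0.87 to -0.74 for CIITA, 0.57 to 0.85 for KAT2B, -0.52 to -0.39 for NFYA and 0.65 to 0.9 for STAT2, each over 5 or 6 libraries, and HFE lost its call without HCC44 DMSO replicate 1 (1.15). Among markers, EPCAM was at 0.99 (adjusted p 0.00323), KRT7 at 2.16 (adjusted p 0.000757), KRT8 at 0.56 (adjusted p 0.0107), KRT18 at 1.4 (adjusted p 0.000345) and CSF1R at 1.27 (adjusted p 0.0231). KRT8 lost its call in 3 of 17 alternatives and CSF1R in 6, and EPCAM, KRT7 and KRT18 in none. With single libraries left out, the lost calls had values of 0.49 and 0.51 for KRT8 and of 1 to 1.29 for CSF1R. Causes were not tested.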

How the results depend on the processing

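NLRC5, B2M and HLA-C in both lines, and HLA-B in HCC44, kept their direction and their call under all 18 alternatives. In H1975 HLA-B lost its call in 2, HLA-E in 2 and HLA-F in 4. The count of members called was the same under each alternative of scaling, filter and dispersion except in H1975 with library totals (4 against 6), between the untreated lines with library totals (4 against 3), and for the difference between the lines. For that difference it was 2 without the filter, 4 with the replicate block and 0 at a threshold of 0.01, against 1. With a library left out it ranged from 0 to 2 for the difference, from 3 to 6 in H1975, from 4 to 4 in HCC44 and from 3 to 3 between the untreated lines. Over all genes, a threshold of 0.01 left 3691 calls in H1975, 4681 in HCC44 and 1654 for the difference. With a library left out the counts over all genes ranged from 3690 to 7161 in H1975, from 4945 to 7342 in HCC44 from 2341 to 4134 for the difference and from 12940 to 14912 between the untreated lines. The cause of these moves was not tested, beyond the stricter threshold and the smaller number of libraries.

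Same-numbered libraries shared deviations (correlation 0.7 in H1975 and 0.237 in HCC44), though the labels name no shared batch. With the replicate block 6358 genes were called for the difference, among them HLA-B, HLA-C (-0.32, adjusted p 0.0318), HLA-E (0.36, adjusted p 0.014) and NLRC5 (-0.56, adjusted p 0.0158), and B2M was called between the untreated lines (-0.23, adjusted p 0.0244).

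Signs turned for values that were not called. CALR in H1975 was 0.01 with upper-quartile factors, 0.14 with library totals and 0.05 without H1975 DMSO replicate 2 or ACBI1 replicate 1 (range with a library left out -0.12 to 0.05). TAP1 in H1975 was 0.07 with library totals and 0.01 without DMSO replicate 2. HLA-E in HCC44 was 0.02 with library totals and without ACBI1 replicate 1 (-0.17 to 0.02). HLA-V in H1975 reached 0.43 once DMSO replicate 1 was dropped and 0.09 without ACBI1 replicate 2 (-1.05 to 0.43). HLA-DRB1 there, with 2 counts against 3, gave -0.49 after dropping DMSO replicate 1 and -0.06 without ACBI1 replicate 1 (-0.49 to 3.58). EPCAM in H1975 was 0.05 with library totals and 0.02 without ACBI1 replicate 2 (-0.28 to 0.02), and KRT19 in HCC44 was 0.24 without ACBI1 replicate 1 (-0.52 to 0.24). Without HCC44 DMSO replicate 1 B2M was -0.02 for the difference (-0.02 to 0.3) and 0.05 between the untreated lines (-0.27 to 0.05). HLA-G was tested only without the filter and was not called in any comparison (adjusted p 0.282 to 0.912).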
